A study of Homo sapiens with 8 samples.

Results

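The clustered histone genes are the copies of the H1, H2A, H2B, H3 and H4 genes whose messages are made mainly while DNA is being replicated. They were chosen by name: a gene belonged to the set if its symbol in the probe table was H1- followed by a number, or began with H2AC, H2BC, H3C or H4C followed by a number. This found 72 of the 20045 genes that the array's probes name, measured by 81 probes. Several probes stood for 6 of them, and the one with the highest mean over the arrays was used. Of the 72 genes, 15 had an intensity over 50 on any array and 57 did not. A further probe that carries the symbols of both H3C11 and H3C6 was left out.

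The arrays measured RNA of U6A cells, a human fibrosarcoma line selected for a lack of STAT2, a signal transducer of the type I interferon receptor. One line expressed STAT2 with the T387A substitution and the other expressed wild-type (WT) STAT2, so both lines carry an introduced STAT2 in the same STAT2-deficient background. Whether either line is a clone or a pool, and which promoter drives the introduced gene, is not given in the sources used here. T387A cells and WT cells were each measured at 0, 4, 8 and 24 h after interferon-beta (IFN-β) was added to 100 IU/ml, with 1 Illumina bead array per line and time, 8 arrays in all. No line and time was repeated, so a p-value here reflects just how far these 8 arrays scatter, and in comparisons over time the 2 lines stood for the 2 arrays of each time. Only the 0 h cells were untreated, so the time in culture and the time in IFN-β cannot be told apart.

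A few values describe the arrays as a whole. Between 40.2% and 40.3% of probes on each array were above a floor of 10.7, the intensity under which a value was treated as background. The arrays share nearly 1 distribution of values, with 78.6% of ranks identical on all, so these near-equal shares say nothing about array quality. Each array's mean correlation with the other arrays was 0.981 to 0.986 across genes. The interferon-induced genes IFIT1, IFIT3, MX1, ISG15, OAS1 and IRF9 passed the test at 4, 8 and 24 h, 6 of 6 in each comparison with 0 h. IFIT1, whose protein binds foreign RNA, read 10883.7 at 24 h against 149 at 0 h in T387A cells, and 10297.5 against 167.4 in WT cells. Of 10 mesenchymal markers, 7 were above the floor on all 8 arrays, among them VIM and CD44. MMP2 and FN1 were above the floor on 7 and 6 arrays, with at most 20 and 44.8, and THY1 was never above it. Of 6 epithelial and 5 blood markers, 0 were above it on all arrays, and their highest values were 16.7 and 20. Of 4 endothelial markers, PECAM1 was above it on all 8 arrays with at most 71.8, whereas CDH5, VWF and KDR never were.

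Histones package DNA into nucleosomes, in which H3 and H4 form the core that pairs of H2A and H2B complete, while H1 binds the linker DNA. Most clustered histone genes lack introns and their mRNAs end in a stem-loop, bound by SLBP, in place of a poly(A) tail. Their transcription is coupled to S phase through NPAT, and their mRNAs are degraded when DNA synthesis stops. Some of these genes also make polyadenylated mRNA from a site further downstream, a form described in differentiating and non-dividing cells. The labels say that the RNA was labelled by the maker's standard protocol, which as background primes on poly(A) tails. An intensity here may therefore follow the polyadenylated form more than the stem-loop form, and the share of each was not measured.

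The genes lie in 3 clusters, given here on GRCh38.p14 as RefSeq places them. The large cluster at chr6:25726063-27893891 held 55 of the 72 genes, of which 7 were over 50. The cluster at chr1:149782689-149887965 held 11, of which 6 were over 50, and the small one at chr1:228457364-228458558 held H2AC25 and H2BC26, of which H2AC25 was. The symbols H1-10 and H1-8 on chromosome 3 and H1-7 and H4C16 on chromosome 12 meet the naming rule but lie outside these clusters, and of the 4 H1-10 was over 50. H1-10 is a linker histone gene that, unlike the clustered ones, is known to be expressed outside S phase as polyadenylated mRNA.

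Many H2A and H2B genes stand back to back and share 1 short stretch of DNA between their start sites. Among the 67 of the 72 genes that RefSeq's promoter table gives with start and strand, 11 such pairs were found, with 193 to 247 bases between the starts, and pairs with the other members were not counted. Both genes were over 50 in 2 pairs (H2BC21 with H2AC20, and H2BC4 with H2AC6), 1 gene was in 2 others (H2AC25 of H2AC25 and H2BC26, and H2BC11 of H2BC11 and H2AC11), and neither was in 7. A shared stretch therefore did not go with a shared readout in every pair. The stretch of a pair read on both sides, that of a pair read on 1 side, and the 250 bases before H2AC19 and H1-10 are printed here. Of the genes beside them, H2AC25, H2AC19 and H1-10 passed a test over time described below. H2BC4 and H2AC6 did not pass, and H2BC26 was never above the floor. Capitals mark the 3 motifs, each searched on both strands. The CCAAT box was searched by these 5 letters, which read ATTGG on the other strand. The TATA box was searched as TATAAA, which the other strand writes as TTTATA. The octamer was searched as ATTTGCAT, or ATGCAAAT on the other strand. The sequences are those of RefSeq on GRCh38.p14, 5′ to 3′. The first lies at chr6:26123927-26124171 on the + strand, the second at chr1:228457874-228458102 on the + strand, the third at chr1:149850811-149851060 on the + strand and the fourth at chr3:129316287-129316536 on the - strand.
H2BC4/H2AC6: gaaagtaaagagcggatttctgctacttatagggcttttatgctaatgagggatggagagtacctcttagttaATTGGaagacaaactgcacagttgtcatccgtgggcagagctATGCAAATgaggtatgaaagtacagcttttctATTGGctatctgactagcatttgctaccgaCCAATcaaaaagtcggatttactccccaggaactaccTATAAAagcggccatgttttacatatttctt
H2AC25/H2BC26: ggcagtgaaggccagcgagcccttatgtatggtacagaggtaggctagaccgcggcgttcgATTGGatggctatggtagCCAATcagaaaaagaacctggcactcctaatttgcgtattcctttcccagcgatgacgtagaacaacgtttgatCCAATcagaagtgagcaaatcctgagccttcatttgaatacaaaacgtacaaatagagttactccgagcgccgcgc
H2AC19: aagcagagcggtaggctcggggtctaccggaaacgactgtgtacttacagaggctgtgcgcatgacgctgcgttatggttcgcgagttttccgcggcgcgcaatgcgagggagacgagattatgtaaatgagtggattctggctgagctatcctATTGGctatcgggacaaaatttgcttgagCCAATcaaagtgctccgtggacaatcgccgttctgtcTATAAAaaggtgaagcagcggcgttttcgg
H1-10: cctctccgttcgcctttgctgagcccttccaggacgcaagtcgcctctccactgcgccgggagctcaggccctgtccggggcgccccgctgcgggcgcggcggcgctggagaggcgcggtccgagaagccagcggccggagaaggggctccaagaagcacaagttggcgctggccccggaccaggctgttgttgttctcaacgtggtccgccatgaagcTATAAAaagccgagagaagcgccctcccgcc
The stretch between H2BC4 and H2AC6 held CCAAT 3 times, TATAAA 1 time and the octamer 1 time. That between H2AC25 and H2BC26 held CCAAT 3 times and neither of the others. H2AC19 had CCAAT 2 times and TATAAA 1 time, and H1-10 had TATAAA 1 time and no CCAAT.

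Of these 67 genes, 14 were among the 15 over 50. In the 250 bases before the start, CCAAT was present in 83.6% of the 67, against 33% of all 27305 promoters. TATAAA was present in 64.2%, against 11.1% of all promoters. The octamer was present in 38.8%, against 1.66% of all promoters, and it divided the families: 25 of 34 H2A and H2B genes (73.5%) had it and 1 of 33 H1, H3 and H4 genes did. Both genes of each of the 11 H2A and H2B pairs share most of this window, so a motif in a shared stretch can be counted for both. CCAAT was present in 11 of the 14 genes over 50 against 45 of the other 53 members, TATAAA in 10 of 14 against 33 of 53, and the octamer in 6 of 14 against 20 of 53. The interferon-stimulated response element was searched as GAAA, any 2 bases and GAAA again (or TTTC in place of GAAA for the other strand), and 3 of 67 members (4.48%) held it, against 3.07% of all promoters. None of the 14 over 50 did, which says only that these letters are not in that window. H2AC18 and H2AC19 are copies of each other, and 249 of 249 bases before their starts were identical once aligned with a shift of 1 base.

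The threshold of 50 was passed by some genes of each family but H3. H2A had 5 of 17 genes over 50, H2B had 5 of 18, H4 had 3 of 15 and H1 had 2 of 9. None of the 13 H3 genes was, and the highest mean of an H3 gene over the 8 arrays was 16.3. By the lower bar of 1 array over the floor there were 9 of 17 H2A, 10 of 18 H2B, 7 of 15 H4, 4 of 9 H1 and 5 of 13 H3 genes, and no difference between families was tested. Of the 72 genes, 37 were never above the floor and 35 were above it on at least 1 array and were tested. Of the 57 genes at or under 50, 20 were above the floor on some array but only H4C12 and H4C8 on all 8. The highest value among the 57 was 38.3, against the threshold of 50, and the lowest maximum among the 15 was 55.2, for H2BC4. H2BC4 passed 50 through its T387A array at 24 h alone, so counts over the 15 are descriptions.

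**Figure D1:**
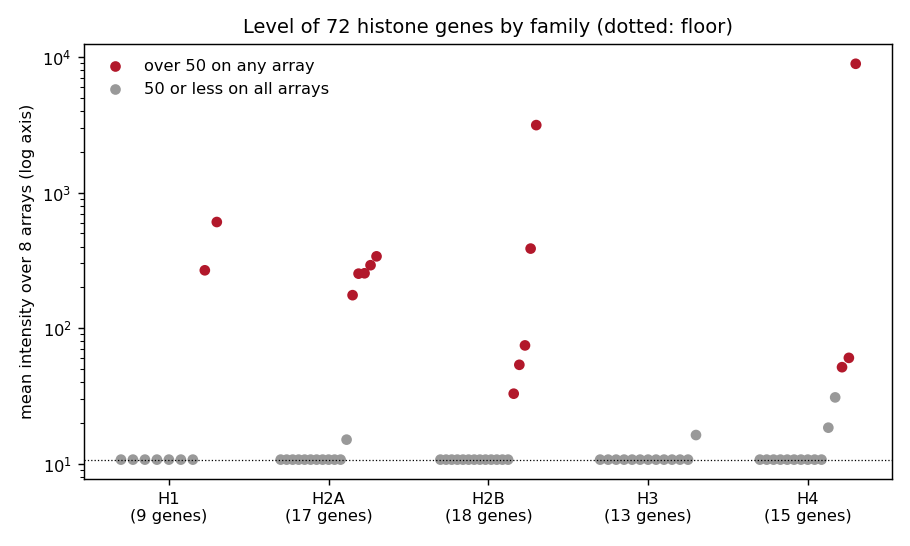
Mean intensity over the 8 arrays (log axis) of each of the 72 histone genes, in columns by family, with values under the floor of 10.7 drawn at the floor. Red points are the 15 genes over 50 on any array and grey points the other 57; the H3 column has no red point. Intensities of different probes are not on a common scale, so the plot shows which genes were read, not which gene made more mRNA.

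Genes whose RefSeq span exceeds 1000 bases were over 50 in 6 of 11 cases (H2BC12, H2BC5, H1-10, H2BC21, H4C15 and H2BC4). Among the 61 shorter genes, 9 were over 50. Some genes were read differently by different probes. H2BC5 had 2 probes annotated to one RefSeq transcript that read 304.2 to 566.7 and 182.1 to 348.7, whereas its probe annotated to another transcript read -8.4 to 0.1 and was never above the floor. The 2 probes of H2BC12 differed in level but were both highest at 24 h in each line, with the second at 1010.8 at 24 h against 530.7 at 0 h in T387A cells, and 912.9 against 630.3 in WT cells. Coding sequences of histone genes are close to identical within a family, and the probe sequences were not used here, so signal from a paralog cannot be separated from that of the named gene.

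The main pattern over time was a higher reading at 24 h of most of the 15 genes over 50, although few passed the test singly. The 24 h array was above the 0 h array for 14 of the 15 genes, in T387A cells and in WT cells alike, and H4C3 was the exception in both. Among the 8058 genes over 50 it was above for 44.8% in T387A cells and 50.7% in WT cells. Over the 35 tested, the 24 h array was higher for 22 and lower for 3 in T387A cells, and higher for 20 and lower for 4 in WT cells, and the others had a difference of 0 after flooring. Both 24 h arrays stood above all 6 other arrays for 13 of the 15, the exceptions being H4C3 and H2BC11, and for 14 of the 35 tested, the additional one being H4C8. Among all 13656 genes tested this arrangement was found in 6.09%, and among the 8058 genes over 50 in 8.02%. The differences were modest, with fitted folds among the 14 of 1.33 for H2BC21 to 2.32 for H2BC4. H2BC4 is among the 15 only through its T387A array at 24 h, so its place in these counts and this range is partly set by that choice. The next highest fold was 2.12, for H2AC6. As in any bulk measurement, a higher share of cells with the mRNA and more mRNA in each cell cannot be told apart.

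**Figure D2:**
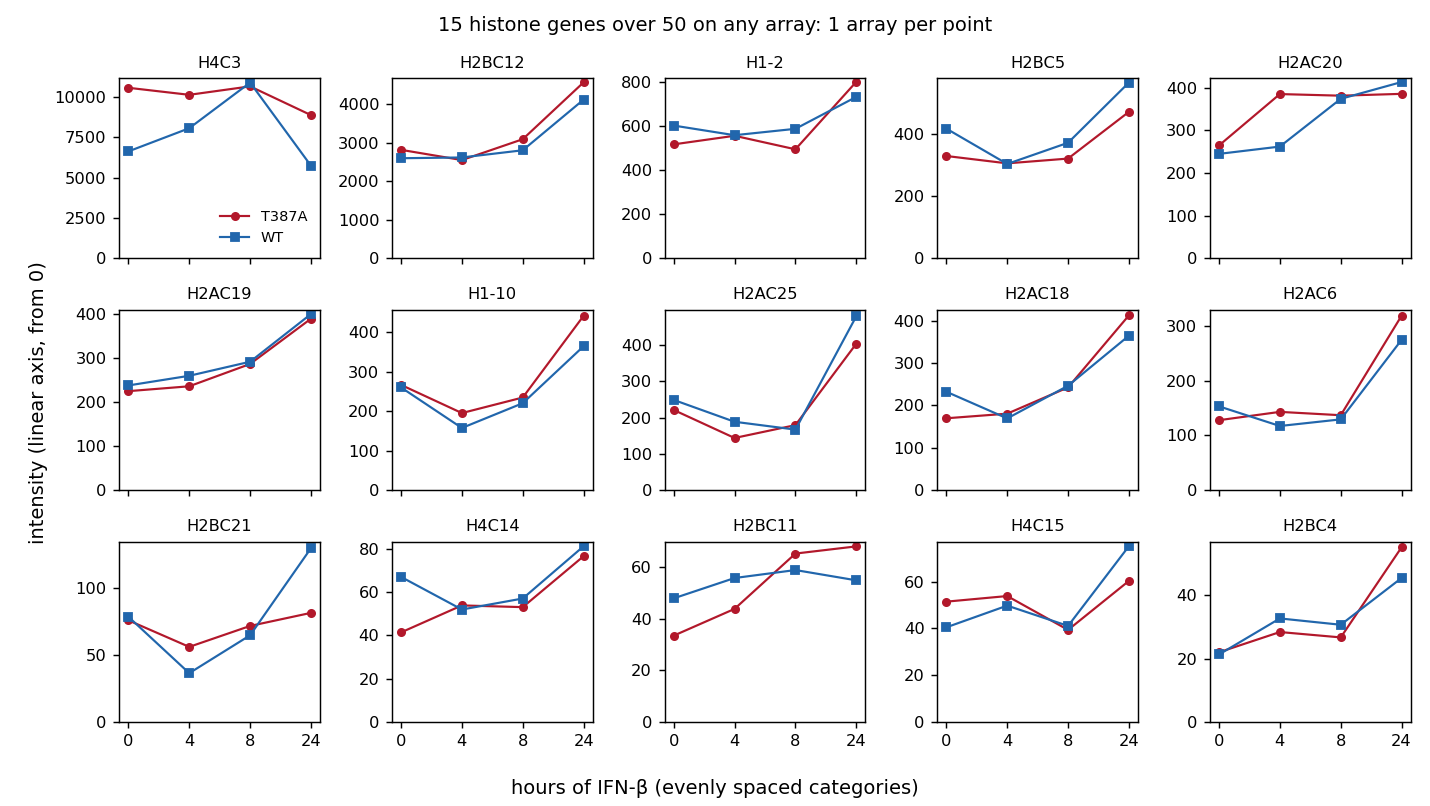
Intensity (linear axes from 0) of the 15 histone genes over 50 at 0, 4, 8 and 24 h of IFN-β, in T387A cells (red circles) and WT cells (blue squares), 1 array per point and no error bars because no line and time was repeated. In 13 of the 15 panels both lines have their highest point at 24 h; H4C3 and H2BC11 differ.

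H2AC19, a core histone H2A gene of the chromosome 1 cluster, gave the steadiest time course. It read 225.3, 236.4, 287.2 and 390.3 at 0, 4, 8 and 24 h in T387A cells, and 238.3, 260.3, 292.3 and 400.9 in WT cells. The lines ran side by side and each later array was above the one before. At 24 h minus 0 h its log2 difference was 0.77 ± 0.09 (SE, 2 arrays against 2), or 1.71-fold, with an adjusted p of 0.0379 by limma over all genes. It was the 1 member to pass in that comparison, of 35 tested, where 1.02% of all genes passed. Without any 1 of the 8 arrays no gene of the 13656 passed in either of the comparisons of 24 h, and the estimate of H2AC19 stayed between 0.75 and 0.79.

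H2AC18, its copy, read 169.7, 180.6, 242.7 and 412.9 at 0, 4, 8 and 24 h in T387A cells, and 232.4, 169.4, 246.6 and 364.9 in WT cells. The 24 h arrays were the highest 2, and the 0 h arrays of the lines were further apart than those of H2AC19. Its difference from 0 h was 0.97 ± 0.18 (SE) on the log2 scale with a limma adjusted p of 0.111. A second H2AC18 probe read 239.9 at 24 h against 105.3 at 0 h in T387A cells, and 208.9 against 171.8 in WT cells. Because the genes are near-identical, the values of H2AC18 and H2AC19 may share signal.

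The other H2A genes over 50 were also highest at 24 h, although H2AC20 was near its highest level earlier. H2AC6 read 127.8, 143.0, 136.9 and 318.8 at 0, 4, 8 and 24 h in T387A cells, and 153.1, 117.2, 129.3 and 274.7 in WT cells. Its 6 earlier arrays lay between 117.2 and 153.1, and the 24 h difference from 0 h was 1.08 ± 0.16 (SE) with a limma adjusted p of 0.0692. H2AC20 read 264.5, 384.9, 381.1 and 385.4 in T387A cells, where it was already at its later level at 4 h, and 244.8, 261.9, 373.7 and 413.1 in WT cells, where it was not until 8 h. The T387A minus WT difference of H2AC20 at 4 h was 0.56 on the log2 scale, from 1 array each and without a test.

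H2AC25, the H2A gene of the small chromosome 1 cluster, combined a low at 4 and 8 h with a high at 24 h. It read 221.1, 143.8, 179.3 and 403.8 at 0, 4, 8 and 24 h in T387A cells, and 248.8, 188.5, 166.9 and 479.5 in WT cells. The 24 h arrays did not overlap with any other, and the 4 and 8 h arrays all lay under both 0 h arrays. Its 24 h minus 4 h difference was 1.42 ± 0.14 (SE), or 2.67-fold, and passed with a limma adjusted p of 0.0427. Its difference of 24 h from 0 h was 0.91 ± 0.14 with an adjusted p of 0.0787. H2BC26, on the other side of the shared stretch printed above, was never above the floor.

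H1-10 had a similar shape. It read 266.2, 194.9, 234.3 and 441.0 at 0, 4, 8 and 24 h in T387A cells, and 259.8, 157.2, 219.9 and 364.1 in WT cells. Both 4 h arrays were under the other 6 and both 24 h arrays above them. The 24 h minus 4 h difference was 1.19 ± 0.11 (SE), or 2.29-fold, with a limma adjusted p of 0.0427. H1-10 and H2AC25 were the 2 of 35 members to pass at 24 h minus 4 h, against 1.02% of all genes. When any 1 array was left out, and no gene of all passed, the estimates stayed between 1.11 and 1.28 for H1-10 and between 1.28 and 1.56 for H2AC25.

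The other linker histone gene, H1-2, moved less. It read 517.8, 556.8, 495.4 and 801.9 at 0, 4, 8 and 24 h in T387A cells, and 603.2, 559.4, 588.4 and 733.5 in WT cells. Its 24 h difference from 0 h was 0.46 ± 0.13 (SE) with a limma adjusted p of 0.236. The single-array differences of 24 h from 0 h were 0.63 in T387A cells and 0.28 in WT cells.

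Among H2B genes, H2BC12 read 2821.4, 2555.3, 3097.5 and 4576.1 at 0, 4, 8 and 24 h in T387A cells, and 2603.1, 2623.0, 2810.1 and 4127.6 in WT cells. The 24 h arrays stood clear of the other 6, which spanned 2555.3 to 3097.5. Its 24 h minus 0 h difference was 0.68 ± 0.10 (SE) with a limma adjusted p of 0.0664. H2BC5 read 329.9, 306.2, 321.6 and 472.3 in T387A cells, and 418.1, 304.2, 372.6 and 566.7 in WT cells, lowest at 4 h and highest at 24 h in both. Its 24 h minus 4 h difference of 0.76 ± 0.12 had an adjusted p of 0.0621.

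The dimmer H2B genes followed with more scatter. H2BC4 read 22.0, 28.4, 26.7 and 55.2 at 0, 4, 8 and 24 h in T387A cells, and 21.3, 32.7, 30.7 and 45.5 in WT cells. Its 0 h arrays were the lowest 2 and its 24 h arrays the highest 2, and the difference of 1.21 ± 0.15 (SE) had a limma adjusted p of 0.0508, just outside the threshold. H2BC4 and H2AC6, the pair with the first sequence printed above, thus both had their highest arrays at 24 h. H2BC21 read 76.1, 56.2, 71.9 and 81.7 in T387A cells, and 78.8, 36.5, 64.9 and 130.2 in WT cells. Its 24 h level rested on the WT array: without that array the 24 h minus 0 h estimate was -0.04 on the log2 scale, against 0.41 ± 0.31 (SE) with it. Its partner H2AC20 had no low at 4 h. H2BC11 read 33.5, 43.9, 65.4 and 68.2 in T387A cells, and 48.0, 55.9, 59.0 and 55.0 in WT cells, where its 24 h array was under that of 8 h.

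The H4 genes differed from each other. H4C3 read 10562.1, 10126.7, 10649.5 and 8870.4 at 0, 4, 8 and 24 h in T387A cells, and 6623.4, 8058.9, 10883.7 and 5735.1 in WT cells. In each line the 24 h array was the lowest of the 4, and the limma difference of 24 h from 0 h was -0.23 ± 0.20 (SE), with a 95% interval of -0.74 to 0.28. H4C3 thus did not follow the other 14. H4C14 read 41.4, 53.9, 53.1 and 76.7 in T387A cells, and 67.1, 52.0, 57.1 and 81.3 in WT cells. H4C15 read 51.5, 53.9, 39.4 and 60.4 in T387A cells, and 40.5, 49.8, 41.1 and 75.3 in WT cells. Both were highest at 24 h in each line, with log2 differences from 0 h of 0.58 ± 0.20 for H4C14 and 0.56 ± 0.18 for H4C15 that did not pass the test.

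The summed intensity of the 15 genes without H4C3 was 5168.2, 4938.2, 5632.5 and 8544.7 at 0, 4, 8 and 24 h in T387A cells, and 5257.3, 4868.0, 5452.6 and 8112.3 in WT cells. In this sum the first 3 times lay close together and the 24 h arrays apart. With H4C3, the brightest of the 15 and lower at 24 h than at 0 h, they did not. The sum was then 15730.3, 15064.9, 16282.0 and 17415.1 in T387A cells. In WT cells it was 11880.7, 12926.9, 16336.3 and 13847.4, highest at 8 h. Such a sum is weighted by the brightness of each probe, so the means of log2 values, which weigh genes equally, are given as well. Without H4C3 these means were 7.27, 7.30, 7.43 and 8.05 in T387A cells, and 7.42, 7.24, 7.44 and 8.07 in WT cells. With H4C3 they were 7.677, 7.701, 7.823 and 8.391 in T387A cells, and 7.775, 7.618, 7.834 and 8.361 in WT cells.

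Set against all genes, the counts at 24 h were as follows. The median log2 difference of 24 h from 0 h was 0.61 over the 15 genes and 0.40 over the 35 tested, against 0 over all 13656 genes and -0.02 over the 8058 genes over 50. Of the 35 tested, 24 differences were positive and 6 negative, and the others were 0. Of all 13656 genes, 6185 were positive and 6564 negative. At an unadjusted limma p under 0.05, 13 of the 15 and 15 of the 35 differed, all of them higher at 24 h, against 13.8% of all genes and 17.8% of genes over 50. At 24 h minus 4 h the median was 0.72 over the 15 genes and 0.33 over the 35, and 11 of the 15 and 12 of the 35 had an unadjusted p under 0.05, all higher at 24 h, against 19.8% of all genes and 27% of genes over 50. In single arrays, 10 of the 15 were at least 1.5-fold higher at 24 h than at 0 h in T387A cells, where 7.34% of all genes were, and 9 of the 15 were in WT cells, where 7.51% of all genes were. Over the 35 tested these counts were 14 in T387A cells and 11 in WT cells. Of the 15, H2BC12, H2AC19, H2AC25, H2AC18, H2AC6 and H2BC4 were so in both lines, as was H4C8 of the other members tested.

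**Figure D3:**
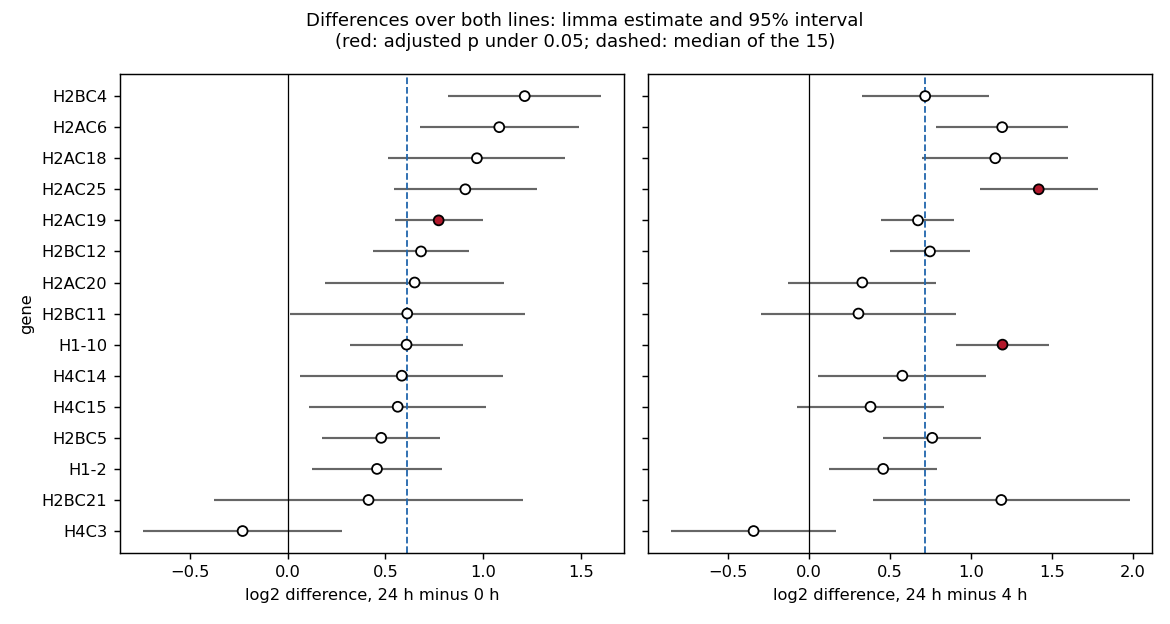
Log2 differences of 24 h minus 0 h (left) and 24 h minus 4 h (right) for the 15 histone genes, fitted over both lines, with limma's estimate and its 95% interval. Red points passed at an adjusted p under 0.05 and the dashed line is the median of the 15, at 0.61 on the left and 0.72 on the right; 14 of 15 points lie right of 0 in each panel.

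At the earlier times the set did not move one way. At 4 h minus 0 h limma passed 0 of the 35 members, against 0.344% of all genes, and at an unadjusted p under 0.05 there were 4, against 17.5% of all genes. Of the 15 genes over 50, 3 were among them: H2BC4 higher by 0.49 ± 0.15 (SE, log2), H1-10 lower at -0.59 ± 0.11 and H2AC25 lower at -0.51 ± 0.14. Among all genes over 50 the share was 23.5%. Both 4 h arrays were under the other 6 for H1-10, H2BC21 and H2BC5, 3 of the 15, an arrangement found in 7.82% of genes over 50. At 8 h minus 0 h limma passed 0 of the 35, against 0.945% of all genes, and 6 had an unadjusted p under 0.05, against 14.8% of all genes. Of the 15 genes over 50, 5 were among these, 4 higher and 1 lower, against 19.8% of genes over 50.

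When the 3 treated times were pooled, limma passed 0 of the 35 members for treated minus untreated cells, against 0.183% of all genes, and 4 had an unadjusted p under 0.05, against 10.5% of all genes. Of the 15 genes over 50 these were H2AC20, at 0.51 ± 0.17 (SE, log2), and H2BC11, at 0.52 ± 0.20. In that comparison the 24 h arrays are averaged with those of 4 and 8 h.

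The lines were compared as T387A minus WT with time in the fit, 4 arrays against 4. No member of 35 passed in limma, and 0% of all genes did. At an unadjusted p under 0.05 there was 1 member, H4C3, against 11% of all genes. H4C3 was higher in T387A cells by 0.40 ± 0.14 (SE, log2), with an adjusted p of 0.422, and the single-array differences of the lines over the 4 times, early to late, were 0.67, 0.33, -0.03 and 0.63. The other 14 differences lay between -0.21 and 0.18, and the median of the 15 was -0.02. For H2AC19 the 95% interval of the difference ran from -0.23 to 0.09, for H2BC12 from -0.08 to 0.27 and for H1-10 from -0.02 to 0.38. For H2BC21 it ran from -0.55 to 0.57. These intervals are for a difference taken as the same at all 4 times, and they reflect the scatter of these arrays. They do not bound the difference at a single time or in repeated cultures.

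Whether the response to IFN-β differed between the lines was fitted as the response in T387A cells minus the response in WT cells, with the 3 treated arrays of each line against its 1 untreated array. Of the 35 members 1 passed, H2BC3, against 0.747% of all genes, and 2 had an unadjusted p under 0.05, against 5.95% of all genes. Of the 15 genes over 50, 0 did. H2BC3 was at the floor on 7 of the 8 arrays and read 18.2 on the eighth, WT cells at 0 h, so its difference of 0.77 (limma adjusted p = 0.0323) rests on that array. The 24 h differences from 0 h had medians over the 15 genes of 0.73 in T387A cells and 0.67 in WT cells, and the difference of those medians was not tested.

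The 20 tested members at or under 50 gave few values clear of the floor. H4C8 read 11.7, 16.6, 14.5 and 29.4 at 0, 4, 8 and 24 h in T387A cells, and 12.9, 11.2, 17.4 and 33.6 in WT cells. Its 24 h arrays were the highest 2, and its 24 h minus 0 h difference of 1.36 ± 0.23 (SE, log2) had a limma adjusted p of 0.0953. H3C6 read 10.1, 16.9, 23.3 and 13.8 in T387A cells, and 6.1, 19.9, 22.1 and 17.8 in WT cells, with its high at 8 h rather than 24 h. Both of its 0 h arrays were under the floor, so its 8 h minus 0 h fold is at least 2.12, with an adjusted p of 0.0553.

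Genes that act on histones were set beside the members as lists chosen by function. SLBP, which binds the stem-loop of histone mRNA, read 393.4, 492, 497.8 and 486.1 at 0, 4, 8 and 24 h in T387A cells, and 440.2, 529.7, 512 and 444.6 in WT cells. NPAT, the S-phase activator of histone transcription, lay between 9 and 20.8 on the 8 arrays, close to the floor. Of 16 tested genes of histone mRNA processing, 8 were higher and 8 lower at 24 h than at 0 h, with a median log2 difference of -0.03. Of 9 tested genes of histone transcription the median was 0.10, and of 20 histone chaperones it was 0.00. No gene of these lists passed limma in any of the 7 comparisons fitted.

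Genes of DNA replication and mitosis, whose activity marks cycling cells, went another way between 4 and 24 h. Among 21 tested S-phase genes, 19 had a negative 24 h minus 4 h difference, with a median log2 difference of -0.26, and of 14 genes of G2 and mitosis all 14 had one, with a median of -0.32. None of these genes passed the test singly. Among all 13656 genes tested, 6341 had a negative 24 h minus 4 h difference. At 4 h minus 0 h, 18 of the 21 S-phase genes had a positive difference, with a median of 0.17. So did 12 of the 14 genes of G2 and mitosis, with a median of 0.27, against 6028 of all 13656. For most genes of both lists the 24 h minus 4 h difference thus starts from a 4 h level above that of 0 h. Against 0 h, the medians at 24 h were -0.03 for S phase and -0.09 for G2 and mitosis in the fit over both lines. By line, the S-phase median of 24 h minus 0 h was -0.21 in T387A cells and 0.13 in WT cells. The pooled S-phase value near 0 thus combines opposite signs. For G2 and mitosis the median was -0.16 in T387A cells and -0.0007 in WT cells. Whether these medians differed between the lines was not tested. PCNA, the replication clamp, read 1258.6, 1471.3, 1556.1 and 1632 at 0, 4, 8 and 24 h in T387A cells, and 1500.2, 1851.9, 1806.5 and 1714 in WT cells, so its T387A array at 24 h was the highest of that line. CCNE2, a cyclin of the entry into S phase, was never above the floor. CDKN1A, an inhibitor of cyclin-dependent kinases, read 2528.1 at 24 h against 2873.5 at 0 h in T387A cells, and 2961.8 against 2873.5 in WT cells. The part of the cell cycle in the histone values was not tested.

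The variant histones, most of which are made throughout the cell cycle from polyadenylated mRNA, were given by a list of their own. Of 11 tested, 7 were higher and 4 lower at 24 h than at 0 h, with a median log2 difference of 0.08, and none passed. H3-3A read 5474.5 at 24 h against 4792.6 at 0 h in T387A cells, and 4188.2 against 3916.6 in WT cells. H3-3B read 686 at 24 h against 638.6 at 0 h in T387A cells, and 615.1 against 632.9 in WT cells. Both encode the H3.3 variant, and their 24 h minus 0 h differences of 0.14 ± 0.13 (SE, log2) and 0.03 ± 0.10 did not pass the test. H2AZ1, the gene of the H2A.Z variant, read 10060 at 24 h against 9049.3 at 0 h in T387A cells, and 9374.3 against 7884.9 in WT cells, a difference of 0.20 ± 0.10 that did not pass.

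**Figure D4:**
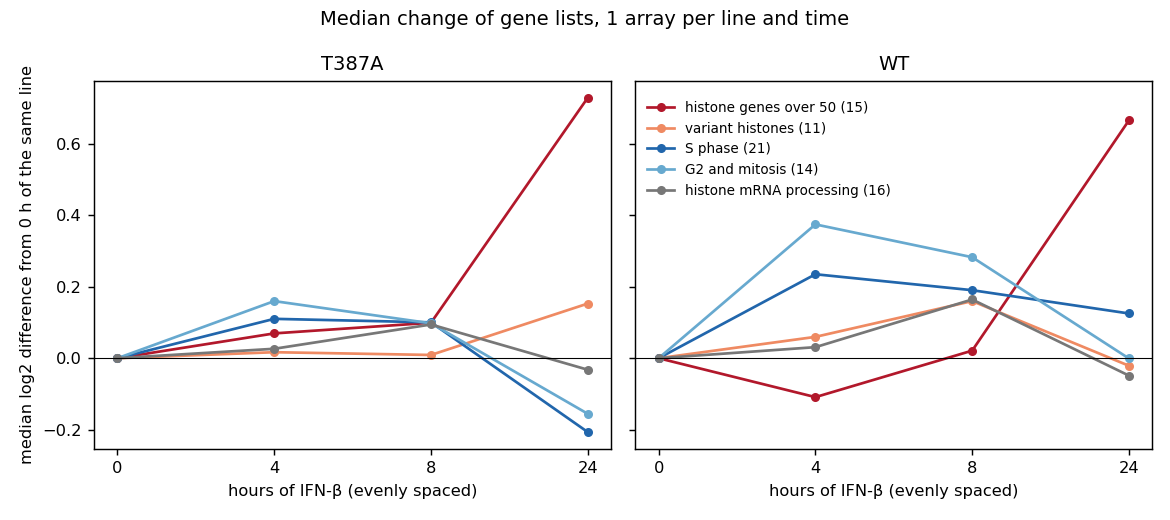
Median log2 difference from the 0 h array of the same line, at 0, 4, 8 and 24 h, for the 15 histone genes over 50 and for lists of variant histones (11 tested), S-phase genes (21), G2 and mitosis genes (14) and histone mRNA processing genes (16), in T387A cells (left) and WT cells (right). Each point is a median over genes of 1 array minus another, with no replicates. The histone genes end at 0.73 in T387A cells and 0.67 in WT cells, above each of the other lists drawn. The lists hold genes above the floor on any array, whereas the histone genes had to be over 50. By the filter of the lists, the medians at 24 h over the 35 histone genes tested were 0.23 in T387A cells and 0.28 in WT cells.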

How the data were processed

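Biotin-labelled RNA of U6A cells expressing T387A or WT STAT2 was hybridised to 8 Illumina bead arrays, per the labels. The deposited values are linear probe intensities, made by the authors with GenomeStudio, per the submitters' processing notes; the sources used here give neither its version nor its background and normalization settings. Of the deposited intensity values, 28.6% were at or below 0, and 78.6% of ranks held identical values on all arrays, which leaves no array total to read as depth. The number of arrays limits the precision. STAT2 itself was not analysed here.

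Of 47315 probes, 30111 carried 1 gene symbol, 8 several and 17196 none; only the first were used. Values were floored at 10.7 and log2 was taken from the deposited intensities; 13656 genes above the floor on at least 1 array were tested. Limma 3.58.1 (lmFit, eBayes, R 4.3.3) was fitted to all genes with Benjamini-Hochberg adjustment, at an adjusted p under 0.05. Time comparisons used time plus line, the treated comparison used line, and the response difference used an interaction. The scripts were checked on simulated data. Coordinates and promoters are from RefSeq on GRCh38.p14.

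Members over 50 and members past the test are named, with SLBP, NPAT, H3-3A, H3-3B, H2AZ1, CCNE2, PCNA, CDKN1A and IFIT1. The members and lists were chosen with earlier results of these data known. Alternatives were a doubled floor, no floor with an offset of 16, a filter of 4 arrays, averaging a gene's probes, a trended robust prior, a repeated quantile or a cyclic loess normalization, omission of arrays and, for the line comparison, no time term. A test restricted to genes over 50 was added after seeing the data.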

Additional observations from a re-analysis of the deposited data

Results flagged for a closer look

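H2BC3, an H2B gene of the chromosome 6 cluster, passed the test of a different response to IFN-β in the 2 lines, on the strength of 1 array. The response in T387A cells minus that in WT cells was 0.77 on the log2 scale, with a limma adjusted p of 0.0323. Its values were 1.0, 5.9, 9.0 and -1.6 at 0, 4, 8 and 24 h in T387A cells, and 18.2, 1.7, 6.4 and 7.3 in WT cells. The WT array at 0 h was the 1 array above the floor of 10.7, so the fitted response difference is that value against the floor. The other 7 arrays were set to the same floored value and leave no scatter. The SE of 0.07 therefore comes from the spread that limma shares across genes, not from H2BC3 itself. The call was lost with no floor, with a trended prior and with cyclic loess. With the floor doubled to 21.4, or with 4 arrays required above the floor, H2BC3 was no longer tested. The call was kept with the mean of a gene's probes and with a repeated quantile normalization. It was also kept without the WT array at 4 h, the WT array at 24 h or the T387A array at 24 h. These values do not show that H2BC3 responded differently in the lines.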

How the results depend on the processing

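The count of members that passed depended on the settings at the late times. At 24 h minus 0 h it was 1, and it was 5 with the floor doubled, 6 with no floor, 2 with 4 arrays above the floor, 3 with the mean of a gene's probes, 6 with a trended and robust prior, 2 with cyclic loess, and 7 when only genes over 50 were tested, which tests fewer genes and was added after seeing the data. The share of all genes called was 1.02% in the reported fit and in the same order 2.53%, 1.98%, 1.58%, 1.4%, 2.01%, 1.01% and 4.84%. At 24 h minus 4 h the count was 2, and in the same order 8, 8, 6, 6, 7, 2 and 9, with shares of all genes of 5.56%, 3.84%, 2.37%, 2.04%, 5.29%, 1.07% and 12%, against 1.02%. H2AC19 was among the members called at 24 h minus 0 h, and H1-10 and H2AC25 at 24 h minus 4 h, under each of these settings. Leaving out 1 array gave 0 to 0 members in both, and 0 of all 13656 genes. At 4 h minus 0 h the count of 0 became 1 (H1-10) with the trended prior and with genes over 50, and at 8 h minus 0 h 1 (H3C6) with 4 arrays above the floor and with the mean of probes. For treated minus untreated it ran from 0 to 1 when 1 array was left out. For the response difference the count of 1 (H2BC3) became 0 with no floor, the trended prior and cyclic loess. It was also 0 with the floor doubled, 4 arrays above the floor and genes over 50, settings that leave H2BC3 untested. The count ran from 0 to 1 when 1 array was left out, and the response difference could not be fitted without either 0 h array. T387A minus WT stayed at 0. The causes were not tested. Of 525 recomputed estimates of the 15 genes, 478 kept their direction and side of the threshold, 42 moved past it and 5 changed sign, all under 0.03 in size: with no floor H4C14 at 4 h minus 0 h (-0.0062), H2BC21 at T387A minus WT (-0.022) and H2AC25 at treated minus untreated (0.0043), and with the mean of probes H2BC5 at treated minus untreated (-0.0048) and H2BC12 in the response difference (0.024). The time comparisons pair the arrays by line through the line term. Over all genes, residual SDs were 0.319 (log2) under 50 and 0.105 over 1000, while among the 15 they ran from 0.036 (H2AC19) to 0.379 (H2BC21), with 0.230 for H4C3. A threshold of 100 in place of 50 left 11 members.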

Other observations

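Outside the clustered genes, H2AJ came closest among the variant histones to the shape seen in H1-10 and H2AC25, and it was chosen after its values were seen. H2AJ encodes an H2A variant whose mRNA is polyadenylated. It read 342.7, 296.1, 336.1 and 467.8 at 0, 4, 8 and 24 h in T387A cells, and 397, 263.9, 306.7 and 503.5 in WT cells, lowest at 4 h and highest at 24 h in both. Its 24 h minus 4 h difference was 0.80 ± 0.13 (SE, log2) with a limma adjusted p of 0.069, outside the threshold. H2AZ2, a second H2A.Z gene that was likewise chosen after its values were seen, went the other way. It read 51.2, 51.8, 40.9 and 22.3 in T387A cells, and 42.9, 54.5, 48.5 and 12.8 in WT cells, and its 24 h minus 0 h difference was -1.47 ± 0.27 with an adjusted p of 0.111.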
